A study of Mus musculus with 3 samples.

Results

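The 8 small leucine-rich proteoglycan genes (Lum, Dcn, Bgn, Omd, Ogn, Fmod, Prelp and Aspn) were followed in single cells of 3 cultures of the cardiac lineage. They were taken by symbol and are 8 of the 27886 genes that at least 1 of the 3 count tables lists. The CPCC and CB tables list all 8, and the mESC table lists Bgn, Omd, Ogn and Aspn. The highest summed levels were those of Lum, Dcn and Bgn in CB, with 1796, 1260 and 778 CPM (counts scaled to a fixed total of 1000000 per sample), and Bgn was the only member with a CPM above 20 in CPCC (527 CPM). In mESC the 4 listed members together held 4.67 CPM.

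All cells were male F1 cells of the cross C57BL/6 x CAST/EiJ. mESC were embryonic stem cells grown under 2i and Lif, CPCC were cardiac precursor cultures passaged in medium with EGF and Fgf2, and CB were cells of beating cardiac bodies, which were picked by eye after growth in medium with ascorbic acid. All 3 carry the same hybrid genome with no engineered change, and the media differ between them. The lines came from several blastocysts, and neither the labels nor the column names say which line a cell came from. The 215 mESC, 175 CPCC and 232 CB cells are 1 sample per group, so no test was made between cultures and no p-value is given. The column names place the cells in sequencing pools, 3 for mESC, 2 for CPCC and 3 for CB, whose values are printed beside the sums as a description. A pool is not known to be a separate culture.

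Small leucine-rich proteoglycans are secreted proteins of the extracellular matrix, built from a curved stack of leucine-rich repeats that in most members carries chondroitin, dermatan or keratan sulfate chains. They bind fibrillar collagens, set the width and spacing of fibrils, and hold growth factors of the TGF-beta family in the matrix. In the heart they are known as products of fibroblasts and of the stroma of valves and vessel walls. By sequence, Dcn, Bgn and Aspn form class I, Lum, Fmod, Prelp and Omd class II, and Ogn belongs to class III.

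In the mouse genome (build GRCm38, GENCODE M21) 7 of the 8 genes lie in 3 groups of neighbours. Dcn (chromosome 10, 97479609 to 97518143) and Lum (97565128 to 97572703) lie on the plus strand with 46984 bases between them. Aspn (chromosome 13, 49544443 to 49567565), Omd (49582462 to 49592822) and Ogn (49608046 to 49624501) follow each other on the plus strand with 14896 and 15223 bases between them. Prelp (chromosome 1, 133910304 to 133921414, minus strand) and Fmod (134037254 to 134048277, plus strand) are 115839 bases apart. Bgn stands alone on the X chromosome (73483602 to 73495933, plus strand), which these male cells carry in a single copy. The whole of Aspn, Omd and Ogn lies within the span of Cenpp, a centromere protein gene on the minus strand (49464023 to 49652785). Cenpp exons share 7 bases with exons of Aspn and 0 with those of Omd and Ogn.

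RefSeq promoter sequences (GRCm38.p6) matched 6 of the 8 members, and those of Bgn and of the chromosome 13 trio are shown, because Bgn was the member that CPCC shared with CB while the trio differed within CB. Each line gives the 150 bases before the annotated start, 5′ to 3′ on the gene's strand. Capitals mark GGGCGG (GC box) or CATTCC (TEAD element) on either strand. The windows are chrX:73483451-73483600 for Bgn, chr13:49544293-49544442 for Aspn, chr13:49582312-49582461 for Omd and chr13:49607865-49608014 for Ogn.
Bgn: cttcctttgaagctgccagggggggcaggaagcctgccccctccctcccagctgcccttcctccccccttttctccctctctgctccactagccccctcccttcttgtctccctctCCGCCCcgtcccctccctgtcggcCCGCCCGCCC
Aspn: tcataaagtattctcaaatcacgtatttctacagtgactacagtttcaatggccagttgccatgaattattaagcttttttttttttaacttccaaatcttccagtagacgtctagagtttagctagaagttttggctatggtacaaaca
Omd: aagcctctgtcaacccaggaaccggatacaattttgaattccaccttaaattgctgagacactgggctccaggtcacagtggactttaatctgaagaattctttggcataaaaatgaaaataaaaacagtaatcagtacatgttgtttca
Ogn: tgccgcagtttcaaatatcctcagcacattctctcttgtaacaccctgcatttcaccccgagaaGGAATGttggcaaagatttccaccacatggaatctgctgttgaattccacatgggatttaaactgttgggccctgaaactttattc
The Bgn promoter held 3 GC boxes, read as CCGCCC on the printed strand, and the last pair of them overlap. Ogn held 1 TEAD element, read as GGAATG, from 86 to 81 bases before its start. Over the 250 bases before the start, a GC box was found in 32.7% of all 32851 promoters in the RefSeq table and a TEAD element in 12.6%. TATAAA occurred in 12.4% of promoters and in those of Aspn and Ogn, outside the printed windows, where the copies on both strands of Ogn overlap. CCAAT occurred in 33.8% and in those of Prelp and Aspn, and TGANTCA (AP-1), searched on both strands like the others, occurred in 6.75% and in none of the 6. G and C made up 64.4% of the 250 bases of Bgn and 30% of those of Aspn, 38.4% of Omd and 42% of Ogn, against a median of 52.4%. These matches describe letters in a window, and no binding was measured.

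The median depth was 1528316, 1437414 and 1397869 counts per cell in mESC, CPCC and CB, while the median number of genes found per cell was 9532, 9252 and 6661. In CB the pools differed, with medians of 804581, 1750784 and 1596814 counts in pools 1, 2 and 3, and 217 of 232 CB cells passed a filter of 100000 counts and 2000 genes. No cell column was shared between tables. The labels call CB mature cardiac cells. Of 12 cardiomyocyte markers, 5 were found in at least 10% of CB cells, and their summed level was 327, 1423 and 23.7 CPM in CB pools 1, 2 and 3. The 10 fibroblast markers, none of them a member, ran the other way, with 9197, 401 and 10530 CPM in those pools. Their part in the levels of the members was not tested.

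Summed over all cells, the class I members differed in where they appeared. Dcn, which carries a dermatan or chondroitin sulfate chain and binds type I collagen, stood at 14.3 CPM in CPCC (95% Poisson interval 13.9 to 14.8) and 1260 CPM in CB (1257 to 1264). Its CPCC pools held 0.345 and 27.4 CPM, and its CB pools 2817, 2.99 and 1740 CPM, so the lowest CB pool lay below the higher CPCC pool. Dcn was found at 10 or more counts in 96 of 232 CB cells (41.4%, exact Clopper-Pearson interval 35.0 to 48.0) and in 11 of 175 CPCC cells. Intervals here and below cover counting error at most. The reads carry no molecular identifiers and several can stem from 1 molecule, so the Poisson intervals of the levels are too narrow.

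Bgn, the closest relative of Dcn and a ligand of the receptors Tlr2 and Tlr4, stood at 0.0854, 527 and 778 CPM in the 3 cultures, in the order mESC, CPCC and CB. The mESC value rests on 30 counts in 3 cells. Its pools held 0, 0.146 and 0.0968 CPM in mESC, 32.9 and 990 in CPCC, and 825, 30.6 and 1443 CPM in CB. Every CPCC and CB pool was above every mESC pool, and CPCC and CB pools overlapped. Bgn reached 10 or more counts in 2 mESC, 45 CPCC and 115 CB cells, and within those cells its median level was 1314 CPM (CPCC) and 965 CPM (CB). Bgn supplied 91.9% of all member counts in CPCC and 16.9% in CB.

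Aspn, a class I protein that binds collagen but lacks a glycosaminoglycan chain, stood at 0.698, 3.43 and 270 CPM in mESC, CPCC and CB. The CB level came almost wholly from pool 3, with 628 CPM against 16.7 and 0.00757 CPM in pools 1 and 2, and pool 2 held 1 count. In CB, 30 cells held 10 or more counts (12.9%), with a median of 801 CPM among them. A single cell gave 72.7% of the Aspn counts of CPCC and another 25.2% of those of CB. Without these cells the levels were 0.943 and 204 CPM.

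Among the class II members Lum was the highest in CB. Lum, a keratan sulfate proteoglycan best known from the cornea, stood at 6.05 CPM in CPCC and 1796 CPM in CB (1791 to 1800), and supplied 39.1% of all member counts there. Its CB pools held 2576, 104 and 3010 CPM, all above its CPCC pools at 0 and 11.7 CPM. In the CPCC pool without a count, 3 counts would have stood at 0.0225 CPM. In CPCC 5 of 175 cells held Lum, and 1 of them gave 78.4% of its counts. In CB 101 cells held 10 or more counts (43.5%, interval 37.1 to 50.2) at a median of 2716 CPM.

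Fmod, which binds the collagen fibril beside Lum and guides cross-linking, stood at 0.134 CPM in CPCC, all of it from 1 cell, and at 16.6 CPM in CB. Its CB pools held 27.9, 0 and 26.8 CPM, from 15 cells with 10 or more counts. Prelp, whose basic end binds heparan sulfate of basement membranes, stood at 0.547 CPM in CPCC and 40.1 CPM in CB. Its CB pools held 24.2, 0.356 and 83.5 CPM, from 32 cells with 10 or more counts. 1 CB cell supplied 34.5% of the Prelp counts, and without it the level was 26.5 CPM. Both genes were low in CB pool 2 and present in pools 1 and 3.

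Omd, first known from bone, had another pattern. Its levels were 3.18, 3.43 and 29.2 CPM in mESC, CPCC and CB, but it was found at 1 or more counts in 67.9% of mESC, 46.3% of CPCC and 15.1% of CB cells. The mESC and CPCC levels had overlapping intervals (2.99 to 3.37 and 3.21 to 3.65 CPM), and the higher CB level came from 1 pool. After every cell was thinned to 400000 counts, leaving out 19, 15 and 22 cells, the shares were 49.0%, 33.1% and 11.0% in the same order. Most of the mESC cells with Omd held few counts (median 4.12), and 32 held 10 or more. In CB the pools stood at 0.625, 0.621 and 67.8 CPM, and 13 cells held 10 or more counts at a median of 166 CPM.

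Ogn, the class III member, stood at 0.715, 18.5 and 407 CPM in mESC, CPCC and CB. Its pools held 0.823, 0.918 and 0.329 CPM in mESC, 0.509 and 35.3 in CPCC, and 181, 2.46 and 875 CPM in CB. The lower CPCC pool lay within the range of mESC, and CB pool 2 lay between the CPCC pools. Ogn reached 10 or more counts in 7 mESC, 21 CPCC and 62 CB cells, and 1 CB cell held 26.1% of the CB counts.

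**Figure D1:**
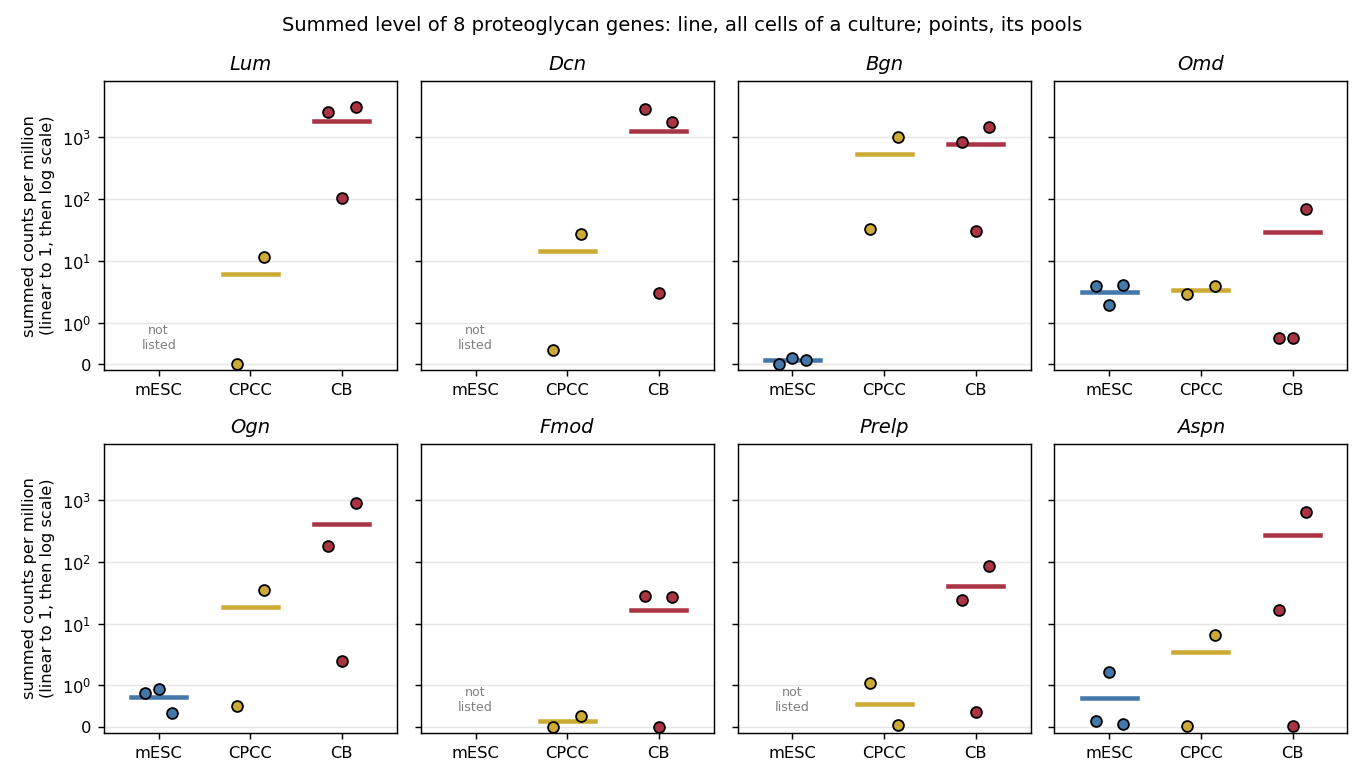
Summed CPM of each member (vertical axis, linear up to 1 CPM and logarithmic above) in mESC, CPCC and CB. Lines are sums over all cells of a culture and points are its sequencing pools. CB pool 2, the middle red point, is the lowest CB pool for every member, at 104 CPM for Lum and 2.99 CPM for Dcn.

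Per kilobase of exon, which allows genes to be compared, Lum led in CB with 734 CPM per kilobase. Dcn, Ogn, Bgn and Aspn followed with 216, 158, 128 and 115 CPM per kilobase, and Omd, Prelp and Fmod had 13.0, 11.1 and 5.01. In CPCC the order was led by Bgn with 86.4 CPM per kilobase, ahead of Ogn with 7.20. In mESC Omd led with 1.41. Each of the neighbours Dcn, Ogn, Bgn and Aspn in the CB order varied more between CB pools than from the next gene. Their order was not compared within pools, so it describes the summed cells only.

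Ratios between cultures were taken as log2 of (CPM + 1), which understates the change of low genes, for genes listed in both tables. In CB against CPCC 7 of the 8 members were at least 2-fold higher and none was at least 2-fold lower, where 17% of 20995 genes were at least 2-fold higher. The log2 ratios were 7.99 for Lum, 6.37 for Dcn, 5.94 for Aspn, 4.73 for Prelp, 4.39 for Ogn, 3.95 for Fmod and 2.77 for Omd, while Bgn differed by 0.56. The value of Bgn moved with the pools of CPCC, to 4.52 without pool 2, where all 8 members were at least 2-fold higher, and to -0.35 without pool 1. The median of the members was 4.56, and that of all genes was 0.14. Over the 6 pairs of a CB pool with a CPCC pool, only Lum was at least 2-fold higher in all 6, with log2 ratios from 3.05 to 11.56. Dcn and Ogn were so in 5 pairs, Fmod, Prelp and Aspn in 4, and Bgn and Omd in 2. Without CB pool 3, Aspn at 0.52 and Omd at -1.45 were no longer 2-fold higher, which left 5 members. Ogn was then at 1.64, Bgn at -0.88 and the median of the members at 2.09.

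In CB against mESC all 4 members with a ratio were at least 2-fold higher, against 24.9% of 19855 genes. The log2 ratios were 9.49 for Bgn, 7.89 for Ogn, 7.32 for Aspn and 2.85 for Omd. Without CB pool 3 they were 8.04, 5.15, 1.90 and -1.36 in the same order, so 3 members were at least 2-fold higher, with a median of 3.53. Bgn was at least 2-fold higher in all 9 pairs of pools, Ogn in 7, Aspn in 6 and Omd in 3. The median of the 4 was 7.61, and that of all genes 0.13.

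In CPCC against mESC 3 of these 4 were at least 2-fold higher, against 13.4% of 20272 genes. Bgn had a log2 ratio of 8.93 and was higher in all 6 pairs of pools. The log2 ratios of Ogn (3.51) and Aspn (1.38) rested on CPCC pool 2, and without it they were -0.18 and -0.73, which left 1 member at least 2-fold higher. Omd differed by 0.08. The 3 comparisons share samples and are not independent of each other.

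**Figure D2:**
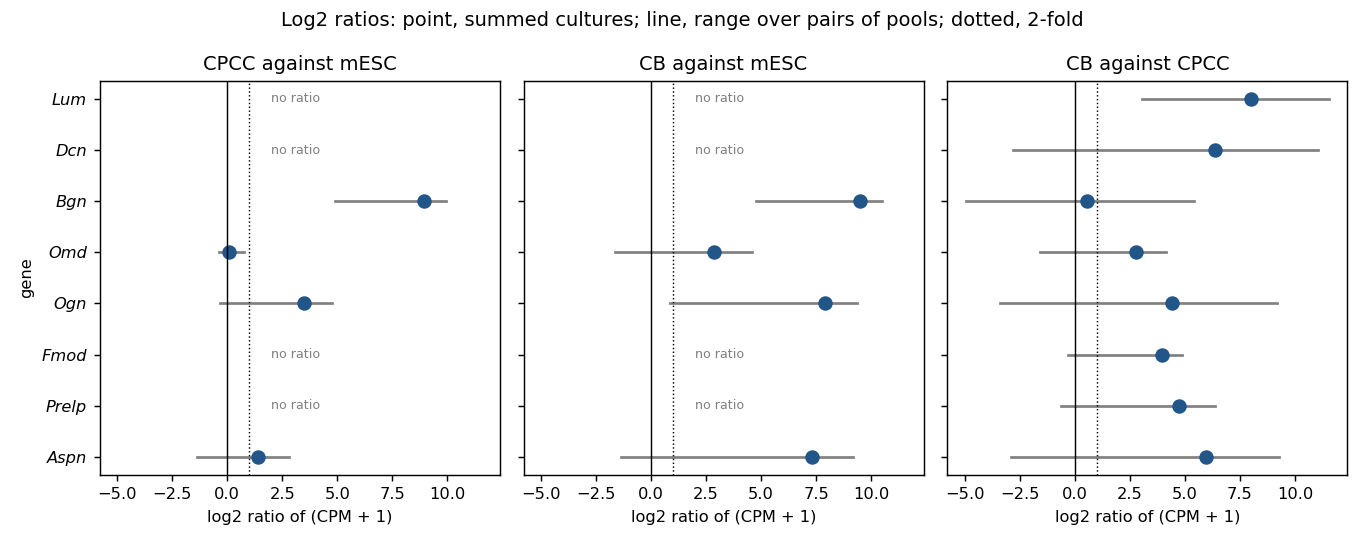
Log2 ratio of (CPM + 1) for each member (horizontal axis) in the 3 comparisons. Points are the summed cultures, grey lines run from the lowest to the highest pair of pools, and the dotted line marks 2-fold. Lum in CB against CPCC, and Bgn in both comparisons with mESC, are the ratios whose whole range lies beyond 2-fold.

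Of 20 listed genes that assemble chondroitin and dermatan sulfate chains, 8 were at least 2-fold higher in CPCC than in mESC and 1 lower, where 13.4% of all genes were higher and 6.38% lower. In CB against CPCC 4 of the 20 were higher, near the 17% of all genes, and none was lower. Chst14, the dermatan 4-O-sulfotransferase, stood at 1.30, 23.4 and 32.5 CPM in mESC, CPCC and CB, so CPCC was nearer to CB than to mESC. Chst15 stood at 0.476, 8.05 and 21.8 CPM, and Dse, the epimerase that makes dermatan sulfate, at 38.0, 57.5 and 49.2 CPM. Of the 7 keratan sulfate genes 4 were higher in CPCC than in mESC, and in CB against CPCC 2 were higher and 1 lower, where 7.54% of all genes were lower. The one lower was B3gnt7, which elongates keratan chains, at 4.31, 33.2 and 2.86 CPM. B4galt4, a galactosyltransferase of keratan chains, stood at 4.09, 21.8 and 42.1 CPM.

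Most genes for the fibrillar partners of these proteoglycans were also higher in CB. Of 14 listed genes for collagens and cross-linking enzymes, 13 were at least 2-fold higher in CB than in CPCC, with a median log2 ratio of 2.14. As for the members, the CB pools were far apart, and only Col6a3 had its lowest CB pool (3.10 CPM) above its highest CPCC pool (2.54 CPM). For Col1a1 the CB pools ran from 30.2 to 1826 CPM and the CPCC pools from 36.7 to 235 CPM. Col6a3, Col6a2 and Col6a1, chains of the beaded collagen that binds Dcn and Bgn, had the largest log2 ratios with 6.04, 5.43 and 4.56, and stood at 165, 134 and 374 CPM in CB. Loxl2, a cross-linking oxidase, was the exception at 87.1 CPM in CPCC and 72.3 CPM in CB. Among 8 listed proteoglycans of other families 2 were higher, a share near the 17% of all genes. They were Vcan (54.8 and 247 CPM in CPCC and CB) and Spock1 (0.594 and 5.50 CPM), and Hspg2, the basement membrane proteoglycan perlecan, stood at 23.1 and 23.8 CPM.

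Of 9 other genes of the proteoglycan family, 3 had a ratio of CB to CPCC, and Ecm2 and Podn were at least 2-fold higher. Ecm2, the gene next to Aspn with 11653 bases between them, stood at 5.89 CPM in CB against 0.504 in CPCC. Podn stood at 5.54 CPM in CB against 0.710, and Tsku at 13.1 CPM against 9.69. Of 10 genes with a ratio for processing enzymes, ligands and receptors of the family, 2 were higher in CB and 1 lower, near the 17% and 7.54% of all genes. Those higher were Met and Egfr, receptors that Dcn binds, at 32.7 and 35.6 CPM in CB and 11.5 and 14.7 CPM in CPCC. Tlr2, a receptor for Bgn, was the lower with 4.88 against 14.0 CPM. The pools of the 2 cultures overlapped for all 3 of these receptors, with 2.86 to 54.0 CPM (CB) and 6.07 to 16.6 CPM (CPCC) for Met, and 0.497 to 9.72 and 0.180 to 27.0 CPM for Tlr2. In CPCC against mESC, where 13.4% of all genes were higher, all 7 with a ratio were higher, among them Bmp1, the protease that trims Bgn, Dcn and Ogn (0.219 and 42.3 CPM), and Tgfb2 (0.245 and 69.6 CPM). In CB against mESC 7 of 7 with a ratio were higher, with 12 of 20 chondroitin and dermatan sulfate genes, 4 of 7 keratan sulfate genes and 7 of 7 fibrillar partners. There, 24.9% of all genes were at least 2-fold higher and 11.3% lower, and 1 of these list genes was lower.

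Cells of CB often held several members. At 1 or more counts, 131 of 232 cells held 3 or more members (56.5%, exact Clopper-Pearson interval 49.8 to 62.9), against 16 of 175 CPCC cells (9.14%) and 2 of 215 mESC cells (0.930%). The mESC table lists only 4 members, which limits its share. For those 4 members the shares of cells with 3 or more were 17.2% in CB (12.6 to 22.7), 6.29% in CPCC (3.18 to 11.0) and 0.930% in mESC (0.113 to 3.32). At 10 or more counts the CB share was 37.5% (31.3 to 44.1). In CB pools 1, 2 and 3 the shares at 10 or more counts were 56.5%, 1.28% and 55.3%. Of the 38 CB cells without a member, 33 were in pool 2, and 1 cell, in pool 1, held all 8. At a median depth of 1397869 counts per CB cell, 1 to 9 counts is a low level. In CB pool 3, 79 of 85 cells held Lum at 1 or more counts and 46 at 10 or more, and the higher limit is used for the pairs below.

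Lum, Dcn and Bgn shared most of their cells. Of 101 cells with Lum, 77 held Dcn (76.2%, interval 66.7 to 84.1) and 88 held Bgn (87.1%). Seen from the other gene, 80.2% of Dcn cells and 76.5% of Bgn cells held Lum, while 14.5% of the 131 cells without Lum held Dcn. The pools differed in this pair. Dcn was held by 89.1% of the Lum cells and 13.0% of the others in pool 1, by 78.3% and 38.5% in pool 3, and by 0 of 9 Lum cells (which allows up to 33.3%) and 1.45% of the others in pool 2. Most cells with a rarer member held each of these 3 genes. Of the 15 Fmod cells, 15 held Lum, 13 held Dcn and 14 held Bgn, and of the 32 Prelp cells 29 held each. Of the 30 Aspn cells, 27 held Lum, 20 held Dcn and 30 held Bgn. Of the 62 Ogn cells, 52 held Lum, 45 held Dcn and 55 held Bgn, and of the 13 Omd cells 10, 8 and 11 did. Among all CB cells 43.5% held Lum, 41.4% Dcn and 49.6% Bgn, and in pool 3 these shares were 54.1%, 60% and 63.5%. Within pool 3, Dcn was held by 65.4% of Aspn cells and 57.6% of the others, so these were close. For Omd the shares with Dcn were 70% and 58.7%. Lum was held by 92.3% of Aspn cells and 37.3% of the others, and for Omd by 90% and 49.3%. Within the chromosome 13 trio the pairs were uneven: 25 of 30 Aspn cells held Ogn (83.3%), 25 of 62 Ogn cells held Aspn (40.3%), and 11 of 13 Omd cells held Ogn.

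**Figure D3:**
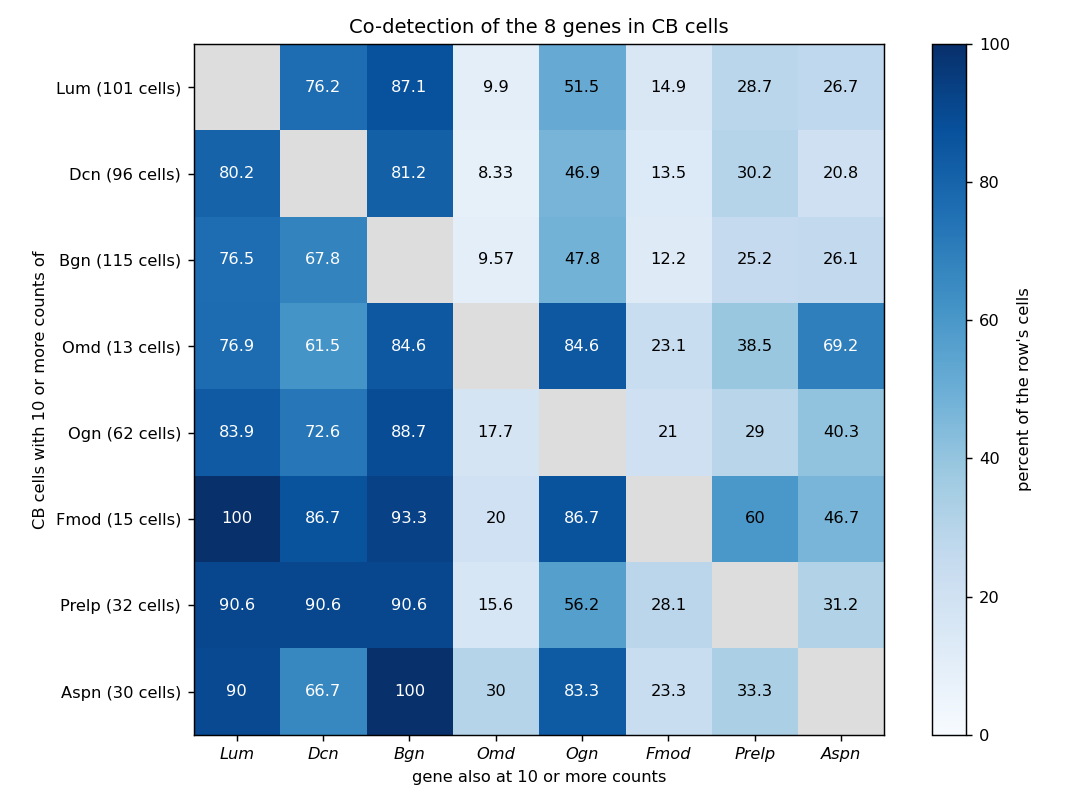
Share of CB cells with 10 or more counts of the row's gene that also held 10 or more counts of the column's gene, in percent, with the number of cells in brackets. The columns of Lum and Bgn are dark throughout, at 76.5% or more, and those of Omd and Fmod are pale, at 30% or less.

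Spearman correlations of log2(CPM + 1) over the 232 CB cells were also taken. The cells share pools and depth, so the values are a description. Lum correlated with Dcn at 0.75 and with Bgn at 0.74, Dcn with Bgn at 0.64, and Ogn with Aspn at 0.54. Within pools 1, 2 and 3 the Lum and Dcn correlation was 0.85, -0.08 and 0.45, so it was near 0 in the pool with little Dcn. Omd correlated with no other member above 0.22 over all cells, and reached 0.51 with Ogn within pool 3.

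The genes most like Lum over CB cells, among 9729 genes found in at least 25% of them, were Col3a1 (0.82), Col1a2, Col1a1, Dcn and Bgn. Those most like Bgn were Col1a2 (0.82), Col1a1, Col3a1, Col5a1 and Mgp, and those most like Dcn were Lum, Col1a1, Col3a1, Col1a2 and Mgp. Ogn and Aspn had Penk and Lox in common. Ogn was nearest to Lox (0.61), Col1a1, Mgp, Penk and Bgn, and Aspn to Thbs2 (0.54), Ogn, Penk, Lox and Col8a1. Within pool 1 the correlations of Aspn with Thbs2, Penk and Col8a1 were 0.06, 0.16 and -0.04, against 0.61, 0.52 and 0.51 within pool 3, while those with Ogn (0.42 and 0.47) and Lox (0.34 and 0.40) were alike in both. Those of Ogn with its 5 genes were lower in pool 1 (0.32 to 0.38) than in pool 3 (0.50 to 0.66). Prelp was nearest to Rarres2 (0.52), Serping1, Islr, Col6a2 and Col6a1. For Fmod (Prss23 at 0.35, then Lox, Col1a2, Sdc3 and Ehd2) and Omd (Pcsk5 at 0.24, then Pth1r, Snx13, Ptgis and Gm10557) the correlations were weak, and no order is read from them.

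To see which CB cells held the members, cells were clustered without them and without their relatives. Cluster 1 (44 cells, led by Penk, Ltbp2 and Nkd2) had 8 of 10 fibroblast markers in most of its cells and is called fibroblast-like. Cluster 3 (37 cells, led by Dlk1, Ncam1 and Acta2) had 9 fibroblast markers, but the smooth muscle genes Acta2 and Tagln among its leading genes, and is left unnamed. Cluster 4 (20 cells, led by Icam2, Cd93 and Pecam1) had all 10 endothelial markers and is called endothelial-like. Cluster 2 (43 cells) was led by Cyp2f2 and the keratins Krt4 and Krt15 with all 10 epithelial markers, but a mesothelial marker stood among its leading genes, and it is called the keratin cluster. Cluster 0 (88 cells, led by Car14, Sall4 and Prtg) had at most 3 markers of any list in most of its cells and is unnamed.

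Lum, Dcn and Bgn were high in both clusters 1 and 3. Lum stood at 5041 CPM in the fibroblast-like cluster and 3907 CPM in cluster 3, Dcn at 2919 and 3925 CPM, and Bgn at 2390 and 1451 CPM. Each was at 10 or more counts in at least 79.5% of the cells of either cluster. In the endothelial-like cluster Lum had 0.0344 CPM and Dcn 0 of 20 cells, which allows a share of up to 15% (3 cells of the total, as for other shares of 0), at a median depth of 1531633 counts against 1765124 in the fibroblast-like cluster. Bgn was different, with 53.0 CPM and 8 of the 20 endothelial-like cells at 10 or more counts (40%, interval 19.1 to 63.9). All 20 endothelial-like cells came from pool 2, where no fibroblast-like cell was captured. The 58 cluster 0 cells of pool 2 held Lum at 133 CPM, Dcn at 3.84 CPM and Bgn at 24.3 CPM. Beyond these values, pool and cluster cannot be told apart for the endothelial-like cells. In the keratin cluster Dcn stood at 357 CPM and was at 10 or more counts in 19 of 43 cells (44.2%), and Lum stood at 223 CPM and was so in 10 cells. That cluster held all its cells in pools 1 and 3, where fibroblast-like cells were also captured.

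The chromosome 13 trio had most of its CB counts in the fibroblast-like cluster. It held 97.2% of the Omd counts, 87.6% of the Aspn counts and 83.3% of the Ogn counts of all CB cells, against 80% of the Prelp, 68.6% of the Bgn, 62.7% of the Lum, 52.4% of the Fmod and 51.7% of the Dcn counts. Prelp, on chromosome 1, was thus close to Ogn in this share. This contrast rests on the division of clusters 1 and 3. With 15 principal components all cells of both joined 1 cluster of 92 cells, which held 97.9% of the Omd, 97.7% of the Ogn, 93.6% of the Aspn, 93.2% of the Bgn and 92.6% of the Dcn counts. With 10 principal components, Aspn stood at 1061 CPM in the fibroblast-like cluster and 124 CPM in cluster 3. In the same order Ogn stood at 1516 and 425 CPM, and Omd at 127 and 0.842 CPM. Prelp stood at 144 and 45.7 CPM and Fmod at 38.9 and 54.3 CPM. The same 2 clusters divided by pool, with 37 of 44 fibroblast-like cells in pool 3 and 28 of 37 cluster 3 cells in pool 1. Within pool 3, Aspn stood at 1131 CPM in the fibroblast-like cells and 332 CPM in the 9 cells of cluster 3, with 45.9% and 44.4% of cells at 10 or more counts. Ogn stood at 1618 and 573 CPM in 75.7% and 77.8% of cells. Omd was found in 24.3% of the fibroblast-like cells of pool 3 and in 0 of the 9, which allows a share of up to 33.3%. Within pool 1, which had 7 fibroblast-like and 28 cluster 3 cells, Ogn ran the other way, at 49.2 and 357 CPM in 14.3% and 53.6% of cells. Aspn stood there at 43.7 and 27.5 CPM, and Omd at 0 and 1.23 CPM. Pool and cluster moved together, and beyond these within-pool values their parts in the level of the trio cannot be told apart.

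**Figure D4:**
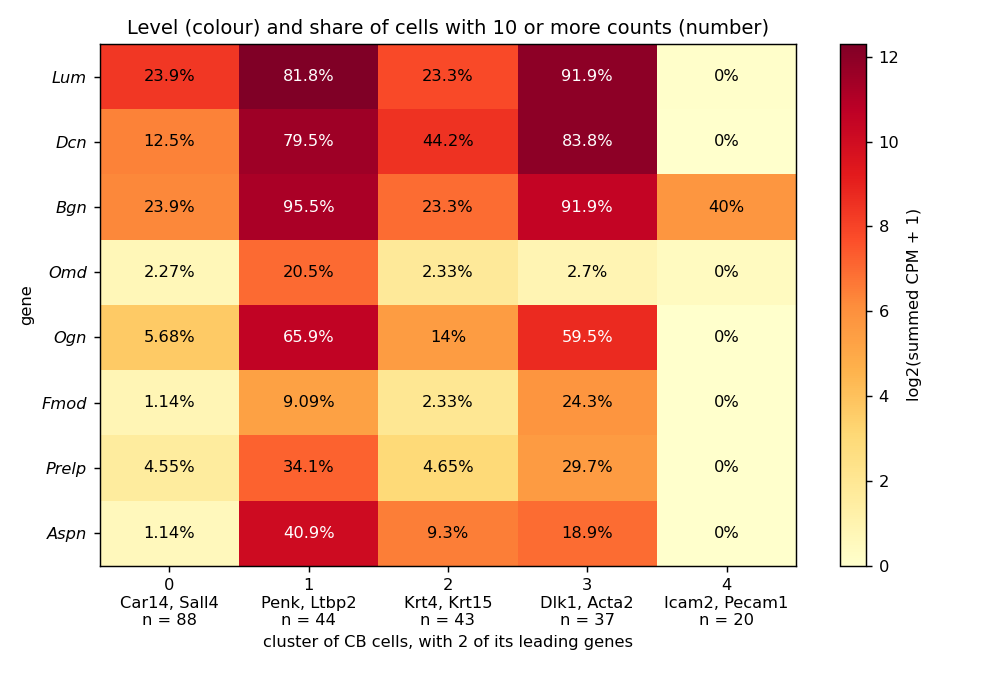
Level of each member (colour, log2 of summed CPM + 1) and share of cells with 10 or more counts (number) in the 5 CB clusters. Lum, Dcn and Bgn are dark in clusters 1 and 3, Omd is highest in cluster 1, and Bgn is the single member with cells at 10 or more counts (40%) in cluster 4.

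In CPCC the members were found mostly in 1 of 5 clusters, a group of 55 cells led by Fbln5, Mgp and Col1a2. It had 5 fibroblast and 5 smooth muscle markers in most cells and is unnamed. This cluster held 97.3% of the Bgn, 98.1% of the Ogn, 95.2% of the Dcn and all of the Lum counts of CPCC. Bgn stood there at 1384 CPM and was at 10 or more counts in 41 of 55 cells, against 1451 CPM in CB cluster 3, while Lum stood at 16.3 CPM, Dcn at 36.7 CPM and Ogn at 48.9 CPM. In the 14 macrophage-like cells, which had all 8 macrophage markers, Bgn was at 1 or more counts in 10 cells but at 10 or more in 1. Omd had 52.5% of its CPCC counts in a cluster of 66 cells that had all 10 pluripotency markers, and 40.1% in the group of 55 cells. It was found in 49 of the 66 cells at 4.88 CPM and in 14 of the 55 at 3.71 CPM. At a resolution of 1.0 the clusters with the most Omd counts held 39.6% (60 cells) and 36.0% (36 cells).

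The low and widespread Omd counts were set beside Cenpp, the gene in which Omd lies on the other strand. Cenpp was chosen after its values were seen. It stood at 55.5, 26.9 and 18.9 CPM in mESC, CPCC and CB, the order of the shares of cells with Omd. In mESC 138 of 146 cells with Omd held Cenpp (94.5%), against 72.5% of the 69 cells without Omd, and in CPCC the shares were 84.0% and 56.4%. Cells with and without Omd were not matched for depth. Ogn and Aspn also lie within Cenpp, but were found in only 8 and 14 of the 215 mESC cells. Of these cells 7 and 12 held Cenpp, against 87.4% and 87.6% of the cells without the gene. In CB pool 3, where Omd was highest, the 10 cells with 10 or more Omd counts held no Cenpp, which allows a share of up to 30%, but Cenpp was rare in the whole pool, at 0.473 CPM and in 1.39% of the 72 cells without Omd. The pool therefore does not show whether cells with Omd differ in Cenpp. The use of strand in the counting is not stated, so reads of unspliced Cenpp and of Omd cannot be told apart in these tables. Prelp likewise shares 350 exon bases with the antisense gene Gm15851.

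**Figure D5:**
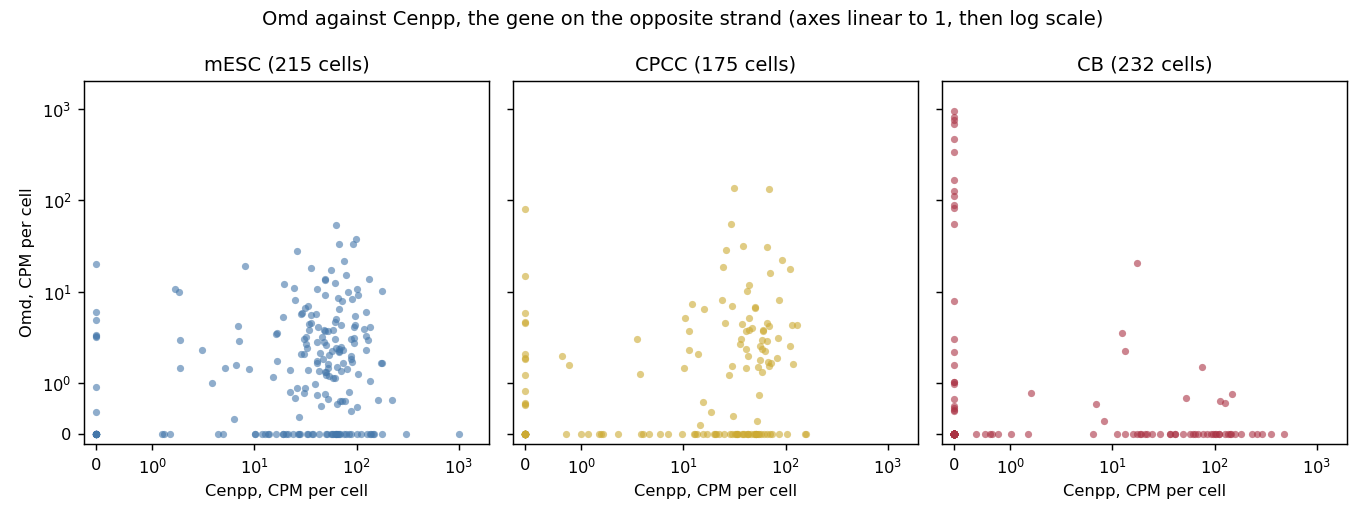
Omd against Cenpp in CPM per cell, 1 point per cell, in the 3 cultures (both axes linear up to 1 CPM and logarithmic above). In mESC and CPCC most cells with Omd also hold Cenpp. In CB the cells with the highest Omd, up to 943 CPM, lie at 0 on the Cenpp axis, in a pool where Cenpp was rare in all cells.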

How the data were processed

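Cells of mESC, CPCC and CB were captured on Fluidigm C1 chips and their polyadenylated RNA was amplified with SMART-Seq chemistry. The authors aligned each library to GRCm38 (mm10, Ensembl annotation) with STAR 2.7 in Partek Flow. They deposited 1 unscaled table per culture. Values are estimated counts per gene and cell in the mESC and CB tables deposited (28.9% and 30.8% of values above 0 not whole), and whole counts in the CPCC table, as deposited by the authors. The counting model and use of strand are not given in the sources used here. In CPCC, 208 rows with no gene and 23 date-like symbols (0.139% of counts) and 2 unmapped columns were left out. No doublet caller was run and no cell was removed.

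Counts were summed per sample and given as CPM, with log2 ratios of (CPM + 1) for genes listed in both tables. A gene was detected at 1 or more counts, and at 10 or more where stated. Shares carry Clopper-Pearson and sums Poisson intervals at 95%, and a share of 0 is given with the limit of 3 counts of the total. With 1 sample per group no test was made, and pools (column name starts) were described only. Clusters came from Seurat 5.3.0 (10 principal components, resolution 0.6, scale factor 10000, the study's variable gene limits) after leaving out the proteoglycan family. TMM and DESeq2 factors (edgeR 4.0.16, DESeq2 1.42.0 in R 4.3.3) and thinning used values rounded to whole counts. Other steps used Python 3.11.15, scipy 1.17.1 and pandas 2.3.3, and were tested on simulated data. The median depth was 1528316, 1437414 and 1397869 counts per cell.

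Named genes were all 8 members. From each gene list, the up to 3 highest and up to 3 lowest ratios per pair among genes at 5 CPM or more were eligible for naming, and for likeness the 5 most correlated genes found in at least 25% of CB cells. Cenpp and Gm15851 were added for their position. The members and lists were chosen with earlier results of these data known. Alternatives were other scaling factors, pseudocounts, totals, cell filters, gene filters, detection limits and cluster settings, and leaving out pools or the richest cell.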

Additional observations from a re-analysis of the deposited data

How the results depend on the processing

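The counts of members at least 2-fold apart were recomputed under each alternative. In CPCC against mESC the count was 1 without CPCC pool 2 instead of 3, and the median log2 ratio of the members was then -0.14, with Ogn at -0.18 and Aspn at -0.73. Without CB pool 3 the log2 ratio of Omd was -1.36 against mESC and -1.45 against CPCC. These ratios come from fewer cells by construction, and the cause of the difference between pools was not tested. The counts otherwise stayed within 1.5 times the reported ones under the alternatives run, from 5 to 8 in CB against CPCC and 3 to 4 in CB against mESC. TMM factors moved the median of all genes in CB against CPCC from 0.14 to 0.02 on the log2 scale. The share of CB cells with 3 or more members, 56.5%, was 38.8% with detection at 5 or more counts, 37.5% at 10 or more, and 48.1% after thinning to 400000 counts. It was 49.1%, 83.1% and 36.7% without CB pool 1, 2 or 3, and 58.1% with the cell filter. Of the other values, 165 moved by more than their counting interval (ratios of single members) or by more than 2-fold (medians and cluster levels), and 115 did not. With 15 principal components the CB cells fell into 4 clusters of 92, 77, 43 and 20 cells. The first took in all 44 fibroblast-like and all 37 cluster 3 cells. The contrast between them for Omd, Ogn and Aspn is therefore not drawn at that setting. At a resolution of 1.0 it remained, between a cluster of 42 cells and the same 37 cells. Omd then stood at 131 and 0.842 CPM, Ogn at 1557 and 425 CPM, and Aspn at 1046 and 124 CPM. These clusters too were divided by pool. No paired analysis was possible because each group is 1 sample and pool numbers are not shared between groups. Values of 1 to 9 counts in a cell rest on few reads at this depth.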

Other observations

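The CB cell with the highest summed member count belonged to pool 3, and 5.30% of its 2126249 counts came from the 8 genes. It held Ogn at 16867 CPM and Aspn at 10816 CPM, the highest values of both genes in any CB cell, with Lum at 15647 CPM, Bgn at 5458 CPM, Omd at 943 CPM and Fmod at 461 CPM. Prelp had no count in it. The richest CPCC cell had Bgn at 7578 CPM and Fmod at 13.3 CPM as its only members.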
